A study of Homo sapiens with 6 samples.

Results

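The tubulin isotypes described here are 10 genes, 7 for beta-tubulin (TUBB, TUBB2A, TUBB2B, TUBB3, TUBB4A, TUBB4B and TUBB6) and 3 for alpha-tubulin (TUBA1A, TUBA1B and TUBA1C). They were taken by name from a table of 56505 gene rows, which held a row for all 10. RNA was sequenced from a cell line labelled MDA-MB-468, which was established from a breast carcinoma of the triple-negative class. In 3 libraries, labelled shCK5-22, the cells carried a pLK0 construct with a short hairpin RNA named for cytokeratin 5, the protein encoded by KRT5. In 3 libraries, labelled shControl, they carried a pLK0 construct with a control hairpin. Both groups were kept in Dulbecco's medium with fetal bovine serum and no treatment is listed for either, and the knockdown rests on 1 hairpin.

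Separate cultures are not stated for the replicates, and a p-value here reflects the spread among libraries, which may be technical. Totals lay between 75460940 and 83594772 counts in shCK5-22 and between 68810882 and 75529699 in shControl. KRT5 averaged 16.4 ± 0.845 CPM (counts scaled to library size) in shCK5-22 and 2044 ± 23.3 CPM in shControl (SD, n = 3 each). RB1 and SMAD4, which are known to be deleted in this line, averaged 101 ± 2.16 and 16.9 ± 0.547 CPM in shCK5-22, against 2.00 ± 0.136 and 0.235 ± 0.138 CPM in shControl. The libraries labelled shCK5-22 therefore go against the cell line label in these 2 genes. A difference between the cells of the groups and an effect of the hairpin cannot be told apart in the values that follow. The 5 epithelial genes checked (KRT8, KRT18, EPCAM, CDH1 and EGFR) were detected in every library and were all lower in shCK5-22, with summed levels of 1843 to 1860 CPM in shCK5-22 and 6085 to 6240 CPM in shControl. In bulk RNA, fewer cells of a type and less RNA per cell cannot be told apart.

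Microtubules are hollow polymers of alpha- and beta-tubulin heterodimers. They form the mitotic spindle, the tracks of intracellular transport and the core of cilia. Mammals encode several alpha and beta isotypes with nearly the same folded core and different carboxy-terminal tails. The tails project from the microtubule surface, bind motors and associated proteins, and receive chains of added glutamate. TUBB is the beta isotype of most cell types, TUBB2A and TUBB2B are abundant in brain, TUBB3 and TUBB4A are best known from neurons, TUBB4B is widely expressed and found in cilia, and TUBB6 is a divergent beta isotype. TUBA1A is the main alpha isotype of the developing brain, while TUBA1B and TUBA1C are expressed in many dividing cells.

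The last 60 coding bases before the stop codon are shown for the 7 beta genes because they encode the tail by which isotypes differ. They come from the GENCODE v29 reference transcripts (GRCh38), run 5′ to 3′ on the coding strand, and show in capitals each in-frame codon for glutamate (GAA or GAG).
TUBB: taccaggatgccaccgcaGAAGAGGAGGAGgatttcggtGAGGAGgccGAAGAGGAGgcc
TUBB4B: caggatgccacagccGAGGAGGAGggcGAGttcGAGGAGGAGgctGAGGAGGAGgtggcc
TUBB2A: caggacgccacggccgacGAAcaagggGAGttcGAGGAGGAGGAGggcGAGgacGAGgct
TUBB2B: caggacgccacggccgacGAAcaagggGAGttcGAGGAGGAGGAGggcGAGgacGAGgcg
TUBB6: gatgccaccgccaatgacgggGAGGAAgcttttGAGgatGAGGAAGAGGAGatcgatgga
TUBB3: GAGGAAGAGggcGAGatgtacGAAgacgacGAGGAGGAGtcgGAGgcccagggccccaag
TUBB4A: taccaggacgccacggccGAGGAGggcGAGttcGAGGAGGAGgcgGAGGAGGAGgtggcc
Of the 20 codons shown, 10 encode glutamate in TUBB4B, 9 in TUBB, TUBB3 and TUBB4A, 8 in TUBB2A and TUBB2B and 7 in TUBB6. The ends of TUBB2A and TUBB2B are identical up to their last base.

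The whole coding sequences are similar too, which bears on every count that follows. Coding identity was 81.3% to 98.1% between pairs of beta genes, 96.3% to 97.3% between pairs of alpha genes, and 58.4% to 61.5% between an alpha and a beta gene. The closest pair was TUBB2A and TUBB2B (98.1%), followed by TUBA1B and TUBA1C (97.3%). When the main transcript of each gene was divided into overlapping windows of 100 bases, 56.4% of the windows of TUBB2A and 46.2% of those of TUBB2B also occurred in a transcript of another gene, mostly in each other. The shared portion was 18.3% for TUBA1A, and TUBB6 and TUBB4A shared no window of this length with any other gene. With windows of 50 bases it was 65.5% for TUBB2A, 52.2% for TUBB2B, 41.1% for TUBA1A, 25.1% for TUBA1C, 9.89% for TUBB4B, 5.99% for TUBB4A and 0.99% for TUBB6. For TUBB it was 18.2% with windows of 50 bases, mostly shared with the pseudogene TUBBP1, and 5.1% with windows of 100 bases. For TUBB3 it was 89.4% with windows of 50 bases, shared with AC092143.1. The sources used here do not say how reads that fit several genes were counted, and the values of TUBB2A, TUBB2B and the alpha genes, and to a lesser extent of TUBB, are uncertain for that reason.

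Neighbouring genes set a second limit. TUBA1B, usually an abundant alpha-tubulin gene (chromosome 12, 49127782 to 49131397, minus strand), had no count in any of the 6 libraries. Its main transcript lies 100% inside the annotated span of the antisense gene AC011603.2. TUBB3 (chromosome 16, 89921392 to 89938761, plus strand) had 2, 2 and 0 counts in shCK5-22 replicates 1, 2 and 3 and 1, 4 and 4 counts in shControl replicates 1, 2 and 3. The span of AC092143.1, on the same strand, covers 99.7% of the main TUBB3 transcript. Across the table, 1530 of 1694 protein-coding genes whose exons lie entirely inside the span of another gene had no count in any library (90.3%), against 921 of 9247 genes with no such overlap (10%). TUBA1B belongs to the first of these classes, and its row was not read as a level of expression. TUBB3 does not, since 243 of its 4430 exon bases lie outside other spans. In its class, with 50% to under 100% of exon bases inside another span, 258 of 1896 genes had no count (13.6%). TUBB3 stayed under the filter on low counts and was not tested, and the cause of its low counts was not tested either. The main transcript of TUBA1C lies 48.5% inside another span, and that of TUBB4A 27.7%, TUBB 20.1%, TUBA1A 18.2% and TUBB4B 7.6%. TUBB2A, TUBB2B and TUBB6 had no such overlap in their main transcript.

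**Figure D1:**
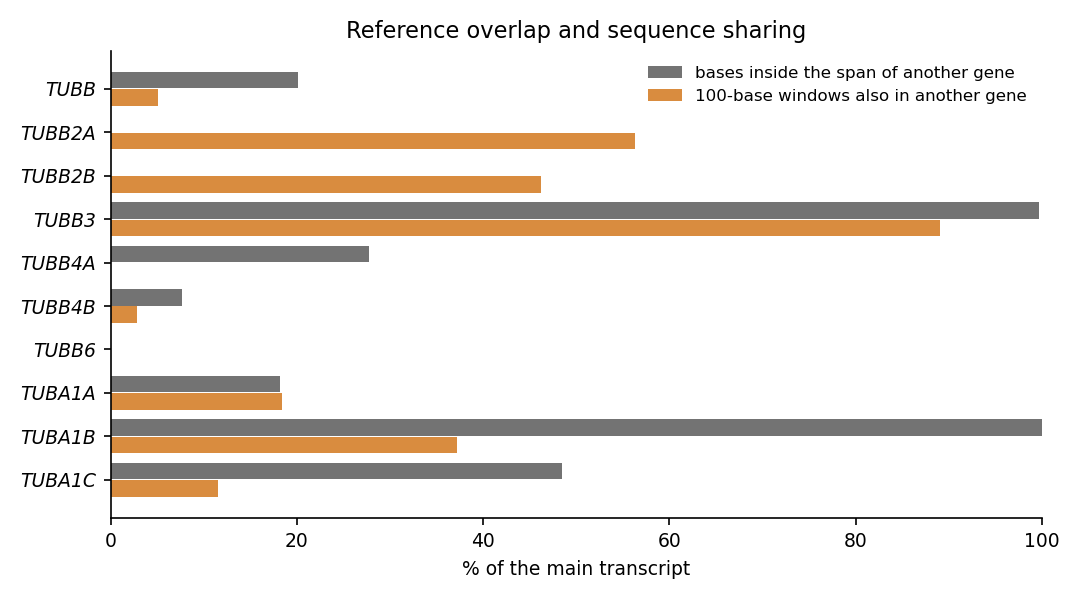
Percent of the main GENCODE v29 transcript of each tubulin gene that lies inside the span of another gene (grey bars) and percent of its 100-base windows that also occur in another gene's transcript (orange bars). TUBA1B and TUBB3 stand at 100% and 99.7% for span overlap, and TUBB6 has neither kind of overlap.

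Of the 10 genes, 8 passed the filter on low counts, and 7 of these differed between the groups in edgeR's quasi-likelihood test (Benjamini-Hochberg adjusted p under 0.05 over 19567 genes). There were 6 genes higher in shCK5-22 (TUBB, TUBB2A, TUBB2B, TUBB4B, TUBA1A and TUBA1C), 1 lower (TUBB6) and 1 that did not pass (TUBB4A). These counts describe the genes and nothing particular to tubulins. Of all genes tested, 82.7% passed, 40.9% higher and 41.7% lower in shCK5-22. The groups did not overlap in 7 of the 8 tubulin genes, against 84.2% of all genes. Changes were above 2-fold in 2 of the 8, TUBB4B and TUBB2A, both higher, against 44% of all genes in either direction, 19.6% higher and 24.4% lower. The median absolute log2 fold change was 0.57 over the 8 genes and 0.853 over all genes tested.

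TUBB4B (ENSG00000188229.5, chromosome 9, 137241213 to 137243707, plus strand, GRCh38) changed the most of these genes. It had 992, 989 and 985 CPM in shCK5-22 replicates 1, 2 and 3, and 221, 224 and 222 CPM in shControl replicates 1, 2 and 3. The groups lay far apart and libraries within a group were nearly equal. The mean was 989 ± 3.39 CPM in shCK5-22 and 222 ± 1.73 CPM in shControl (SD, n = 3 each), a 4.45-fold difference (log2 fold change 2.15, SE 0.0253; edgeR adjusted p = 1.09e-28). A larger absolute log2 fold change was found in 21.6% of all genes tested.

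TUBB (ENSG00000196230.12, chromosome 6, 30720201 to 30725426, plus strand) was the most abundant tubulin row and rose by a smaller factor. It had 2620, 2688 and 2663 CPM in shCK5-22 and 2065, 2102 and 2101 CPM in shControl. All shCK5-22 libraries were above all shControl libraries. The mean was 2657 ± 34.3 CPM in shCK5-22 and 2090 ± 20.9 CPM in shControl, a 1.27-fold difference (log2 fold change 0.35, SE 0.0241; edgeR adjusted p = 1.31e-12). The counts of TUBB were 2.69 ± 0.041 times those of TUBB4B in shCK5-22 and 9.40 ± 0.0556 times in shControl.

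**Figure D2:**
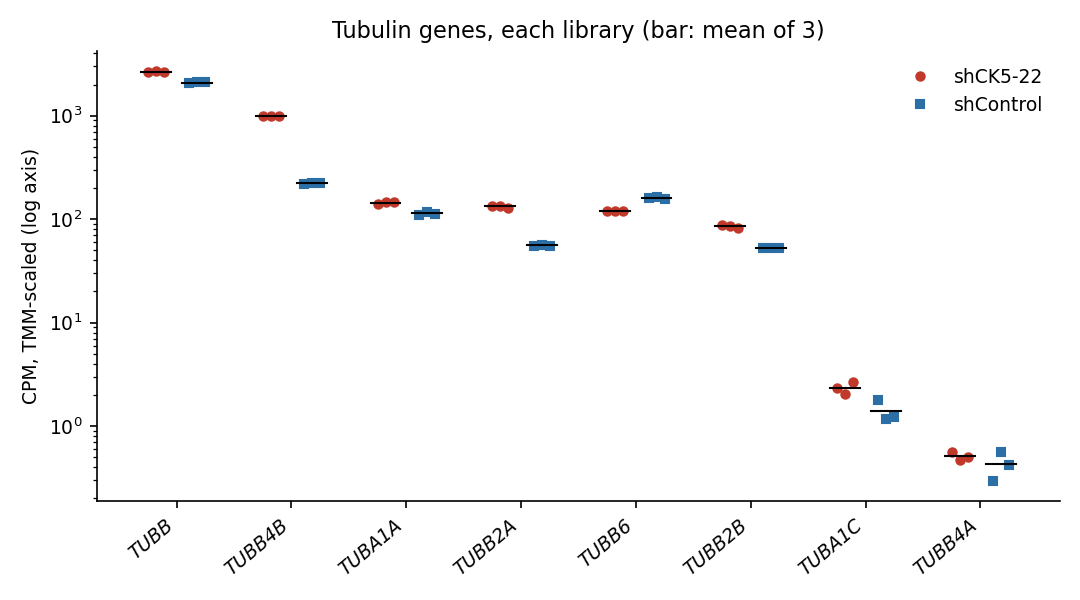
TMM-scaled CPM on a log axis for the 8 tubulin genes past the count filter, 1 point per library (red circles, shCK5-22; blue squares, shControl), with a bar at each group mean. The points of TUBB4B lie at 985 to 992 CPM in shCK5-22 and 221 to 224 CPM in shControl, TUBB6 is lower in shCK5-22, and the TUBB4A groups overlap.

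TUBB2A and TUBB2B lie close together on the minus strand of chromosome 6 (3153669 to 3157526 and 3224261 to 3231730). TUBB2A (ENSG00000137267.5) had 134, 134 and 129 CPM in shCK5-22 and 55.3, 56.3 and 55.3 CPM in shControl, without overlap. TUBB2B (ENSG00000137285.9) had 87.3, 86.3 and 82.9 CPM in shCK5-22 and 52.8, 52.2 and 52.1 CPM in shControl, also without overlap. Both rose, TUBB2A 2.38-fold (log2 fold change 1.25, SE 0.0305; edgeR adjusted p = 3.62e-22) and TUBB2B 1.63-fold (log2 fold change 0.71, SE 0.0328; edgeR adjusted p = 3.03e-16). The ratio of their counts was 1.54, 1.56 and 1.56 in the shCK5-22 libraries and 1.05, 1.08 and 1.06 in the shControl libraries. The ratio differed between the groups by more than its spread within them, so the rows are not copies of the same number, although they share many windows. Counted together as a single gene, they rose by 1.01 on the log2 scale (SE 0.0279; edgeR adjusted p = 5.04e-21).

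TUBB6 (ENSG00000176014.12, chromosome 18, 12307669 to 12344320, plus strand) was the only 1 of the 10 listed genes called lower. Among the 7 listed beta genes it also had the smallest share of 50-base windows found in other genes (0.99%). It had 119, 120 and 119 CPM in shCK5-22 and 159, 164 and 158 CPM in shControl. Every shCK5-22 library was below every shControl library. The mean was 119 ± 0.523 CPM in shCK5-22 and 160.3 ± 3.23 CPM in shControl, a 1.35-fold difference (log2 fold change -0.43, SE 0.0279; edgeR adjusted p = 3.12e-13). TUBB4B had 8.31 ± 0.0473 times the counts of TUBB6 in shCK5-22 and 1.39 ± 0.02 times in shControl.

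TUBB4A (ENSG00000104833.11, chromosome 19, 6494319 to 6502848, minus strand) was close to the detection limit. It had 45, 36 and 36 counts in shCK5-22 and 22, 45 and 30 counts in shControl, and the groups overlapped. The log2 fold change was 0.26 (SE 0.322; edgeR adjusted p = 0.454), a difference not detectable at this depth.

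Among the 3 listed alpha genes, TUBA1A (ENSG00000167552.13, chromosome 12, 49184796 to 49189324, minus strand) was the only row above 5 CPM. It had 139, 147 and 147 CPM in shCK5-22 and 111, 117 and 113 CPM in shControl, without overlap. It rose 1.27-fold (log2 fold change 0.34, SE 0.0315; edgeR adjusted p = 2.72e-10). TUBA1C (ENSG00000167553.15, chromosome 12, 49188736 to 49274603, plus strand) had 2.36, 2.03 and 2.66 CPM in shCK5-22 and 1.79, 1.17 and 1.23 CPM in shControl. These were 187, 155 and 192 counts in shCK5-22 and 133, 93 and 88 counts in shControl, again without overlap. TUBA1C rose 1.69-fold (log2 fold change 0.75, SE 0.177; edgeR adjusted p = 0.000428). Counted as a single gene, the TUBA1A, TUBA1B and TUBA1C rows rose by 0.35 on the log2 scale (SE 0.031; edgeR adjusted p = 1.55e-10).

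Scaled by library size alone, without TMM factors, the median over all genes tested was -0.156 on the log2 scale, against -0.0194 with them, and each of the 7 differing tubulin genes kept its direction and passed. TUBB and TUBA1A were then both at 0.21 and TUBB6 was at -0.57.

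**Figure D3:**
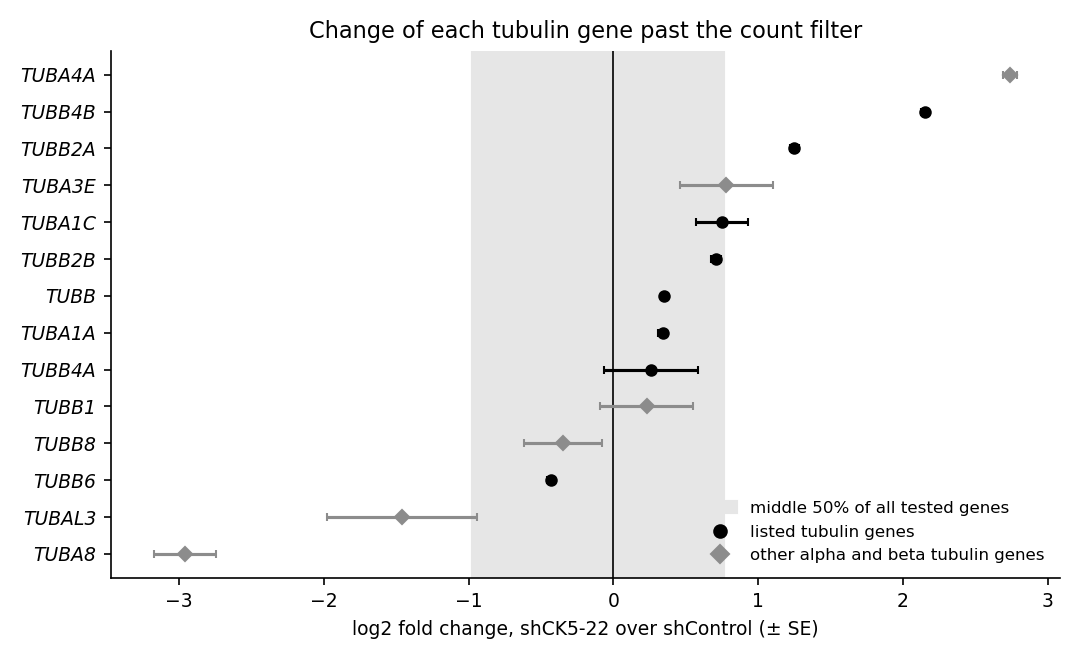
Log2 fold change of shCK5-22 over shControl with its standard error for each tubulin gene past the count filter (black circles, the 8 genes above; grey diamonds, other alpha and beta tubulin genes). The shaded band, from -0.979 to 0.766, holds the middle 50% of all genes tested; of the black circles, TUBB4B and TUBB2A lie above it and TUBB6 lies inside it.

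To compare genes with each other, levels were divided by the merged exon length, giving CPM per kilobase. In shCK5-22 the order was TUBB (791 ± 10.2), TUBB4B (468 ± 1.61), TUBB2A (76.8 ± 1.6), TUBA1A (42.2 ± 1.42), TUBB2B (38.97 ± 1.04) and TUBB6 (28.9 ± 0.127 CPM per kilobase). In shControl it was TUBB (622 ± 6.22), TUBB4B (105 ± 0.82), TUBB6 (38.9 ± 0.784), TUBA1A (33.2 ± 1.02), TUBB2A (32.2 ± 0.344) and TUBB2B (23.9 ± 0.168 CPM per kilobase). TUBA1A and TUBB2A overlapped in shControl and were not separated by their spread. The other neighbours in both orders did not overlap between libraries. TUBB6 had rank 3 in shControl with each of the 4 gene lengths tried. In shCK5-22 it had rank 6, below TUBB2B, with merged exon length and with exon length outside other spans. With coding length and the longest coding transcript it had rank 5, above TUBB2B, so the order of these 2 genes is not settled there. TUBB2A and TUBA1A also changed places in shCK5-22. With coding length TUBA1A (106.4 CPM per kilobase) had rank 3 and TUBB2A (99.09) rank 4, so their order there is not settled. TUBA1C was at or below 0.573 CPM per kilobase in every library, and TUBB4A at or below 0.164.

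The summed level of the 7 beta genes was 1396, 1415 and 1401 CPM per kilobase in shCK5-22 and 814, 828 and 825 in shControl, a ratio of 1.71 between the group means. Sums and shares over these genes are given without a test. TUBB3 had 0 to 4 counts per library, and 99.7% of its main transcript lies inside another span. The beta sum and shares are therefore those of the counted rows and may leave out RNA of TUBB3. TUBB made up 56.3% ± 0.41 of the sum in shCK5-22 and 75.6% ± 0.172 in shControl. TUBB4B made up 33.4% ± 0.279 in shCK5-22 and 12.8% ± 0.0467 in shControl. The share of TUBB2A was 5.47% ± 0.109 in shCK5-22 and 3.92% ± 0.0297 in shControl, and that of TUBB6 was 2.06% ± 0.00549 in shCK5-22 and 4.73% ± 0.0817 in shControl (SD, n = 3 each). TUBB2B held 2.78% ± 0.0766 in shCK5-22 and 2.90% ± 0.0458 in shControl. The highest shCK5-22 library (2.85%) lay just below the lowest shControl library (2.87%). This order does not hold with coding length. The beta sum then rose by 0.626 on the log2 scale, less than the 0.71 of TUBB2B, so the TUBB2B share was higher in shCK5-22. With merged exon length, 62.4% of the net difference in the sum lay in TUBB4B and 29% in TUBB. With coding length, TUBB averaged 1990 CPM per kilobase in shCK5-22 and 1565 in shControl. TUBB4B then averaged 739 in shCK5-22 and 166.1 in shControl, so this split also moves with the length. The shares depend on the length used: with coding length alone TUBB4B was 24.8% in shCK5-22 and 8.60% in shControl. The alpha sum, 42.7 ± 1.42 CPM per kilobase in shCK5-22 and 33.5 ± 0.96 in shControl, was almost wholly TUBA1A (98.8% of the sum in shCK5-22 and 99.1% in shControl). With the other alpha genes of the table added, the sum was 57.4 ± 1.3 CPM per kilobase in shCK5-22 and 36.6 ± 0.931 in shControl. TUBA1A then held 73.4% ± 0.891 in shCK5-22 and 90.6% ± 0.623 in shControl, and TUBA4A held 24.8% ± 0.93 in shCK5-22 and 5.84% ± 0.243 in shControl. As TUBA1B could not be read, neither sum is the alpha pool of these cells, and no ratio of alpha to beta was drawn.

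**Figure D4:**
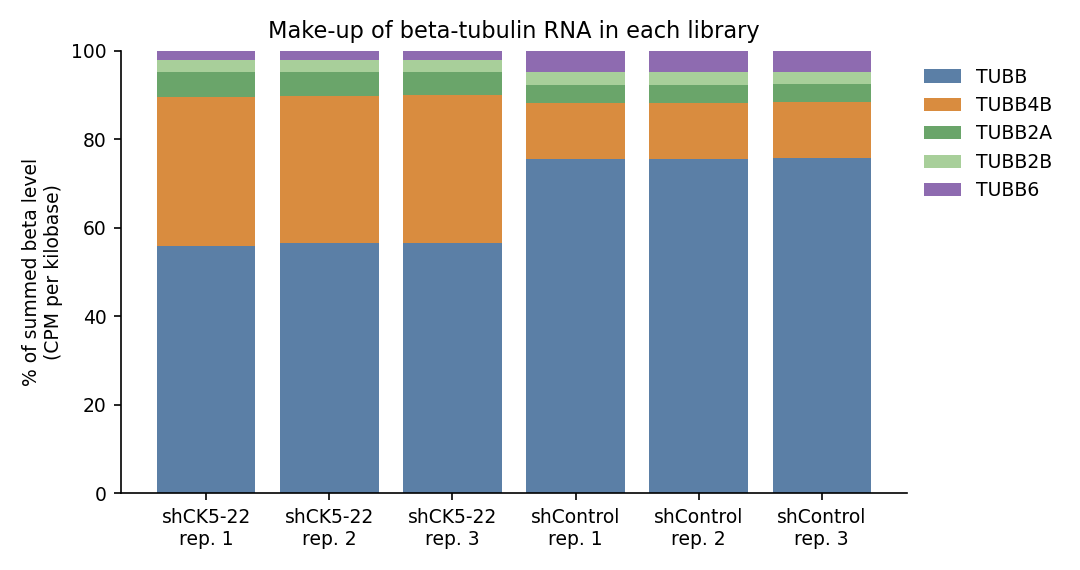
Percent of the summed beta-tubulin level (CPM per kilobase of merged exon) held by each gene in each library; TUBB3 and TUBB4A, below 0.02% each, are not visible. TUBB4B takes 33.1% to 33.7% of the bar in shCK5-22 and 12.7% to 12.8% in shControl, and TUBB takes 55.9% to 56.6% in shCK5-22 and 75.5% to 75.8% in shControl.

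The promoters of the genes that changed by over 2-fold, and of the neighbour of TUBB2A, are shown for comparison. Each is the 250 bases before the RefSeq start (build GRCh38.p14), with capitals for CCAAT, for the GC box GGGCGG and for TATAAA on either strand. They lie at chr9:137241037-137241286 on the plus strand for TUBB4B, chr6:3157545-3157794 on the minus strand for TUBB2A and chr6:3227654-3227903 on the minus strand for TUBB2B.
TUBB4B: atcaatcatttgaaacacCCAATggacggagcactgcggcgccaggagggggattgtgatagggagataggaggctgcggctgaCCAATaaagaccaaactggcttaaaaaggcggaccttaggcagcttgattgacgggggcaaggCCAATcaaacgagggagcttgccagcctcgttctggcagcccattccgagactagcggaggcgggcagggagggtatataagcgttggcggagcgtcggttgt
TUBB2A: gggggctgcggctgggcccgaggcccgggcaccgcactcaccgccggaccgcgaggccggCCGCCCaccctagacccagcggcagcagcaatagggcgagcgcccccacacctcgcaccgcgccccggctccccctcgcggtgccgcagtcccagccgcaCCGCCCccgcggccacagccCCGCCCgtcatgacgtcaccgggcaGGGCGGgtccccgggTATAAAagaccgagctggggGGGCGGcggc
TUBB2B: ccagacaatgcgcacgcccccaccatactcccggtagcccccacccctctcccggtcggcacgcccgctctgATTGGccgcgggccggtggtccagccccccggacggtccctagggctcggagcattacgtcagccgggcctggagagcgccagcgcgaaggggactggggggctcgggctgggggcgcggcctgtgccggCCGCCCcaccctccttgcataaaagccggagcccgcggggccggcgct
The TUBB4B window held 3 CCAAT matches and no other match. That of TUBB2A held 5 GC boxes and 1 TATAAA, and that of TUBB2B held 1 CCAAT and 1 GC box. Of 35116 promoter windows of the same length in the table, 32% held CCAAT, 42.6% a GC box and 10.7% TATAAA. A match describes the letters and not a bound site.

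Outside the 10 genes, 9 other alpha and beta tubulin genes had a row. TUBA3C, TUBA3D and TUBA4B had no count, and 2 of the other 6 rose, 2 fell and 2 did not pass. The share past the threshold over all genes tested was 82.7%, with 40.9% higher and 41.7% lower. All exon bases of TUBA3D and TUBA4B lie inside the spans of other genes, as with TUBA1B. Their rows were not read as levels of expression either. TUBA4A, an alpha isotype of platelets and many other cells, had 59.0, 56.7 and 58.7 CPM in shCK5-22 and 8.94, 8.63 and 8.58 CPM in shControl. It rose 6.67-fold (log2 fold change 2.74, SE 0.0459; edgeR adjusted p = 1.54e-25), and 37.2% of its main transcript lies inside the spans of other genes. TUBA8 averaged 0.306 ± 0.0453 CPM in shCK5-22 and 2.40 ± 0.211 CPM in shControl and fell by 2.96 on the log2 scale (SE 0.214; edgeR adjusted p = 2.92e-12), with 71.4% of its main transcript inside other spans. Of its windows of 100 bases, 65.2% also occurred in a transcript of PEX26, so its row may not be specific to TUBA8. TUBA3E had log2 fold change 0.78 (SE 0.322; edgeR adjusted p = 0.0285), which lost its call without shCK5-22 replicate 2 (adjusted p = 0.163) and without shControl replicate 1 (adjusted p = 0.0703). TUBAL3, at 4 to 22 counts per library, had log2 fold change -1.46 (SE 0.52; edgeR adjusted p = 0.0127), which lost its call without shCK5-22 replicate 3 (adjusted p = 0.0665) and without shControl replicate 2 (adjusted p = 0.0731). TUBB1 and TUBB8 had log2 fold changes of 0.23 and -0.35 (edgeR adjusted p = 0.511 and 0.227).

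Genes whose products fold, modify and bind tubulin were read from lists chosen by function. The counts below stand against 82.7% of all genes tested past the threshold, 40.9% higher and 41.7% lower, with a median log2 fold change of -0.0194 and a median absolute value of 0.853. For tubulin folding, 4 of 8 cofactor and autoregulation genes rose, 2 fell and 2 missed the threshold (median log2 fold change 0.36). TBCC and TBCA, which encode folding cofactors, and TBCEL were higher by 1.25, 1.10 and 1.25 log2 units (SE 0.0337 to 0.0548). TBCB, a cofactor that binds alpha-tubulin, fell by 0.59, and TTC5, whose product recognises tubulins as they are made and triggers decay of their mRNA when free dimers are in excess, averaged 6.99 ± 0.421 CPM in shCK5-22 and 14.1 ± 0.548 CPM in shControl (log2 fold change -1.01, SE 0.0711; edgeR adjusted p = 1.56e-12). Of 14 subunits of prefoldin and of the chaperonin that folds tubulin and actin, 8 rose, 2 fell and 4 missed the threshold (median 0.11). PFDN4, PFDN2 and CCT7 rose by 1.07, 0.94 and 0.57, while CCT6A averaged 489 ± 11.8 CPM in shCK5-22 and 1522 ± 44.6 CPM in shControl (log2 fold change -1.64, SE 0.0278; edgeR adjusted p = 1.86e-25) and TCP1 fell by 0.62.

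Of 13 genes for gamma-, delta- and epsilon-tubulin and the gamma-tubulin ring complex, which nucleates microtubules, 4 rose, 5 fell and 4 missed the threshold (median log2 fold change -0.03). The ring subunit gene TUBGCP2, the recruiting factor gene NEDD1 and TUBG1, the main gamma-tubulin gene, rose by 0.92, 0.66 and 0.52 on the log2 scale. TUBE1 and TUBD1, which encode epsilon- and delta-tubulin of centrioles, fell by 1.87 (SE 0.047) and 0.57 (SE 0.0754), and the ring subunit gene TUBGCP6 fell by 0.53.

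Of 20 tested genes for tubulin-modifying enzymes, 9 rose, 8 fell and 3 missed the threshold (median log2 fold change -0.15). The list mixes enzymes of the tails with ATAT1, HDAC6 and SIRT2, which add or remove an acetyl group on alpha-tubulin inside the microtubule. These 3 rose by 0.64, 0.88 and 0.57 on the log2 scale, and they were named after their values were seen. AGTPBP1, which encodes a deglutamylase that trims glutamate chains, averaged 81.3 ± 2.13 CPM in shCK5-22 and 12.3 ± 0.626 CPM in shControl (log2 fold change 2.72, SE 0.0434; edgeR adjusted p = 5.64e-26). Glutamate-adding ligases lay on both sides, with TTLL11 and TTLL7 higher by 1.83 and 0.92 on the log2 scale and TTLL1 and TTLL4 at -2.20 and -1.64. VASH2, which encodes an enzyme that removes the terminal tyrosine of alpha-tubulin, fell by 1.85 (SE 0.114).

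Structural microtubule-associated proteins bundle, stabilize or anchor the polymer. Of 22 tested genes, 12 rose, 8 fell and 2 missed the threshold (median log2 fold change 0.58, median absolute value 1.20, against 0.853 over all genes tested). MAP7D3, MAP1B and the spindle assembly factor gene TPX2 rose by 1.66, 1.65 and 1.36 on the log2 scale. MAP7, which recruits kinesin to microtubules, averaged 7.04 ± 0.298 CPM in shCK5-22 and 121 ± 4.96 CPM in shControl (log2 fold change -4.11, SE 0.0455; edgeR adjusted p = 3.61e-29). MAP2, best known from dendrites, and CAMSAP3, which anchors microtubule minus ends in epithelial cells, fell by 4.04 and 3.40.

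Plus-end, depolymerizing and severing proteins rose in 15 of 22 tested genes, fell in 4 and missed the threshold in 3 (median log2 fold change 0.52). Over all genes tested, 40.9% rose and 41.7% fell. MAPRE2, which encodes the end-binding protein EB2, averaged 32.3 ± 1.27 CPM in shCK5-22 and had 4, 4 and 0 counts in shControl replicates 1, 2 and 3 (log2 fold change 9.77, SE 0.154; edgeR adjusted p = 4.28e-26). The ratio of its summed counts, scaled by the TMM-scaled library sizes, was 913 (exact 95% interval 463 to 2120, counting error only). Leaving out single libraries moved the log2 fold change between 9.24 and 10.17. At so few shControl counts the SE understates the uncertainty. SLAIN1, whose product promotes plus-end growth, had 1304 counts in shCK5-22 and 3 in shControl (ratio 431, exact 95% interval 147 to 2090, counting error only). All 3 of its shControl counts were in replicate 1, and the fitted log2 fold change was 8.58 with it (SE 0.31; edgeR adjusted p = 1.48e-18) and 11.76 without that library, a fit to shControl libraries at 0 and no bound. STMN3, a stathmin gene, rose by 2.65 on the log2 scale. SPAST, STMN1 and KATNA1, the products of which sever or depolymerize microtubules, fell by 0.33, 0.29 and 0.29 on the log2 scale.

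**Figure D5:**
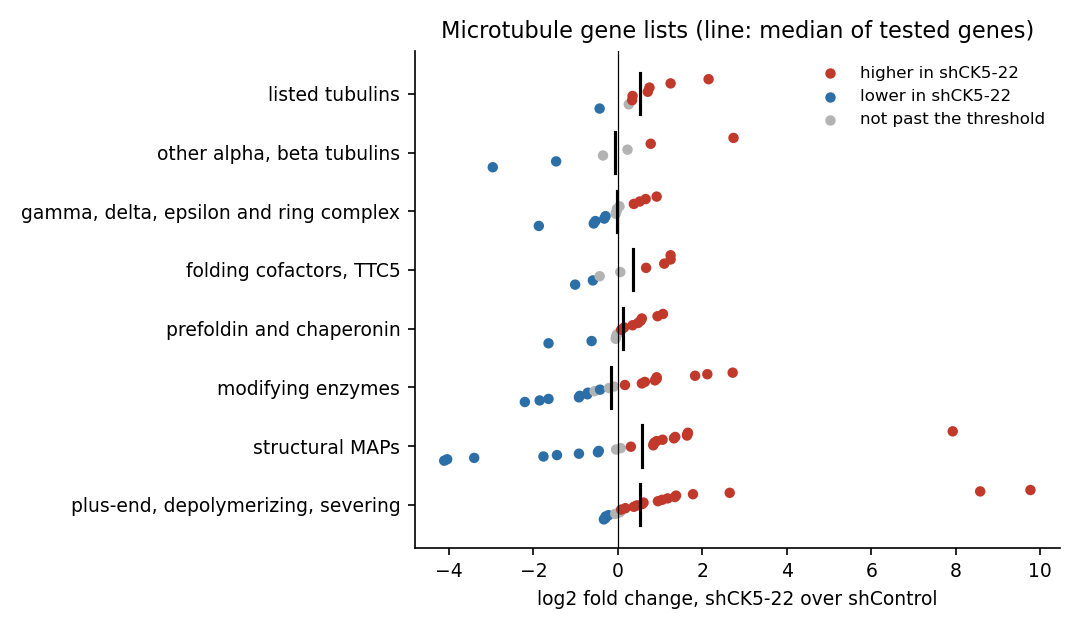
Log2 fold change of shCK5-22 over shControl for each tested gene of 8 lists (red, higher; blue, lower; grey, not past the threshold), with a line at each list's median. The 10 listed tubulins, 8 of them tested, span -0.43 to 2.15, whereas structural microtubule-associated proteins and plus-end proteins include genes at -4.11 and 9.77.

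Several of these isotypes are abundant in neurons, so neuronal markers were read beside them. The summed level of 10 neuronal marker genes was 3.79 to 4.36 CPM in shCK5-22 and 12.5 to 13.4 CPM in shControl. SNAP25 and NEFL had no count in any library, ELAVL4 and NEFM had at most 2 counts in a library, and INA alone averaged 0.423 ± 0.0938 CPM in shCK5-22 and 11.4 ± 0.312 CPM in shControl. Of the 4 that passed the filter, SYP and SYT1 rose and ELAVL3 and INA fell. Summed fibroblast markers (7 genes) were 4.48 to 5.14 CPM in shCK5-22 and 6.29 to 7.55 CPM in shControl, leukocyte markers (6 genes) 0.622 to 0.813 CPM in shCK5-22 and 1.03 to 1.66 CPM in shControl, and endothelial markers (5 genes) 5.98 to 6.94 CPM in shCK5-22 and 4.46 to 6.37 CPM in shControl. These sums hold opposite changes. PDGFRB averaged 4.36 ± 0.301 CPM in shCK5-22 and 0.476 ± 0.184 CPM in shControl, whereas FAP averaged 0.253 ± 0.0977 CPM in shCK5-22 and 6.04 ± 0.624 CPM in shControl. PECAM1 averaged 4.23 ± 0.434 CPM in shCK5-22 and 2.21 ± 0.688 CPM in shControl, whereas CDH5 averaged 0.0348 ± 0.0136 CPM in shCK5-22 and 1.30 ± 0.158 CPM in shControl. These 4 genes were picked after their values were seen, and all 4 passed edgeR's test. THY1 and CD68 had no count. The summed rows of the 10 tubulin genes were 4094 to 4166 CPM in shCK5-22 and 2666 to 2718 CPM in shControl. Mitochondrial transcripts took 7.84% to 8.72% of the counts in shCK5-22 and 10.27% to 10.72% in shControl. The part of these markers and of the mitochondrial share in the tubulin differences was not tested.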

How the data were processed

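Total RNA of 6 libraries was sequenced. The deposited table holds unnormalized counts for each gene symbol, made from sorted alignments per the file headers; per the submitters' processing notes cutadapt, STAR, SAMtools, Cufflinks and GRCh38 were used. The counting program, strand setting, annotation release and rule for reads that fit several genes: not given in the sources used here. Antisense and overlapping genes thus cannot be told apart. Of counts above 20, 63.1% to 65% per library were even, and 25 of 48 tubulin values; the cause was not tested.

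Columns were assigned to libraries by name. Rows were filtered with filterByExpr and tested in edgeR 4.0.16 (R 4.3.3; TMM scaling, glmQLFit and glmQLFTest, no covariate), with Benjamini-Hochberg adjustment over 19567 genes and a threshold of 0.05. The fit was tested on simulated data. Log2 fold changes are shCK5-22 over shControl, and the SE is the absolute log2 fold change divided by the root of F. CPM uses TMM-scaled library sizes. Chi-square per degree of freedom between libraries of a group was at least 4.06, so none was counted as a duplicate. Lengths, spans and transcripts came from GENCODE v29 (GRCh38), which may differ from the release the authors used; the main transcript is the APPRIS principal one. Promoters came from RefSeq (GRCh38.p14).

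The genes and lists were chosen with earlier results of these data known. Every listed tubulin gene is named, as is each other alpha or beta tubulin gene past the filter; from the other lists, the 3 highest and 3 lowest log2 fold changes past the threshold with at least 5 CPM in a group. Alternatives were DESeq2 1.42.0, scaling by library size, no filter, the replicate number as a block, leaving out each library, summed copies and other gene lengths. Some sequences and 1 marker are not reported here.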

Additional observations from a re-analysis of the deposited data

How the results depend on the processing

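All 84 alternative values of the tested tubulin genes kept their direction and their side of the threshold under library-size scaling, DESeq2, no filter, the replicate block, summed copies and leaving out each library. Summed copies included, TUBB4B ranged from 2.02 to 2.17, TUBB2A from 1.01 to 1.28, TUBB from 0.21 to 0.37, TUBB6 from -0.57 to -0.41 and TUBA1C from 0.35 to 0.97 on the log2 scale. The 0.35 is that of the summed TUBA1A, TUBA1B and TUBA1C rows, which are nearly all TUBA1A counts. That value and its call therefore say little about TUBA1C. Without it, the lowest value of TUBA1C was 0.62, with library-size scaling. The 1.01 given for TUBB2A is likewise that of the summed TUBB2A and TUBB2B rows. Without that fit, the lowest value of TUBB2A was 1.12, with library-size scaling. Among the 84 values, each summed fit was entered once for each of its tested genes. Of 514 alternative values of single genes, 8 lost the threshold, all of TUBA3E or TUBAL3; TUBA3E also lost it under library-size scaling (adjusted p = 0.0668), DESeq2 (0.0694) and the replicate block (0.0595), and TUBAL3 under DESeq2 (0.0653). The counts of tubulin genes, of related genes (48 to 56 higher, 30 to 43 lower) and of all genes (7167 to 8473 higher, 8008 to 9118 lower) stayed within 1.5 times the reported ones.

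Same-numbered libraries did not deviate together (Pearson's r across genes 0.008, -0.015 and -0.005), so the number was not taken to pair them. With the replicate block, 7918 genes were higher and 8008 lower, against 8012 and 8165 without it, and the tubulin genes stayed at 6 higher and 1 lower.

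Shares of the summed beta level moved with gene length; the change of length is itself the cause. With coding length, longest coding transcript length and exon length outside other spans (the last chosen after seeing the data), TUBB was 66.8%, 53.8% and 58.9% in shCK5-22 and 81.0%, 72.4% and 76.9% in shControl, and TUBB4B was 24.8%, 35.5% and 31.1% in shCK5-22 and 8.60%, 13.7% and 11.6% in shControl. The log2 ratio of the summed beta level, 0.772, was 0.626 with coding length, 0.73 with exon length outside other spans and 0.635 with library-size scaling. The log2 ratio of the summed alpha level, 0.349, was 0.648 with the other alpha genes added and 0.213 with library-size scaling. TUBB4A, TUBB1 and TUBAL3 had under 50 counts in every library, which limits their precision.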

Other observations

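Rows for tubulin pseudogenes and further tubulin-like names (39, picked by name after the data were seen) had counts in 14 cases, and 6 passed the filter, of which 2 rose, 2 fell and 2 did not pass. Over all genes tested, 82.7% passed the threshold, 40.9% higher and 41.7% lower in shCK5-22. TUBBP1, annotated as a transcribed processed pseudogene, had 46.4 ± 1.3 CPM in shCK5-22 and 36.4 ± 0.162 CPM in shControl, and its counts were 1.75% ± 0.048 of those of TUBB in shCK5-22 and 1.74% ± 0.0253 in shControl. TUBBP2 held 0.169% ± 0.00693 of the TUBB counts in shCK5-22 and 0.163% ± 0.00494 in shControl. Their log2 fold changes, 0.35 (SE 0.038) and 0.40 (SE 0.105), stood beside 0.35 (SE 0.0241) for TUBB. TUBB2BP1, which lies between TUBB2A and TUBB2B, held 3.77% ± 0.506 of the TUBB2B counts in shCK5-22 and 6.07% ± 0.493 in shControl, and its own log2 fold change was 0.02 (SE 0.128; edgeR adjusted p = 0.877).

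TUBBP5, a transcribed unprocessed pseudogene on chromosome 9 (138150075 to 138177433, plus strand, GRCh38), had 26, 22 and 36 counts in shCK5-22 and 628, 564 and 524 counts in shControl, and was 20.5-fold lower in shCK5-22 (log2 fold change -4.36, SE 0.16; edgeR adjusted p = 2.25e-18). Other genes' transcripts held 52.4% of its windows of 50 bases and 20.5% of those of 100 bases. Its row may therefore not be specific to TUBBP5.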
